A study of Mus musculus with 18 samples.

Results

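The genes described here are 38 members of folate and one-carbon metabolism, chosen by name from the 37991 gene identifiers counted in mouse kidney. They were set in 5 branches by textbook role: 6 genes of folate uptake and retention, 8 enzymes of the cytosolic folate pool, 12 of the mitochondrial folate pool with glycine and choline breakdown, 9 of the methionine cycle and 3 of serine synthesis. The mitochondrial branch includes Pipox, a peroxisomal enzyme. All 38 symbols matched an identifier, and 37 had enough reads to be tested. The exception was Mat1a, the liver form of methionine adenosyltransferase, with 0 reads in 17 libraries and 2 reads in day 14 replicate 1.

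The study followed the kidneys of male Balb/c mice after folic acid nephropathy was induced with 1 intraperitoneal injection of folic acid at 250 mg/kg in sodium bicarbonate. Total RNA of frozen kidney was sequenced in 18 libraries, 3 from untreated mice and 3 each from mice killed 1, 2, 3, 7 and 14 days after the injection. The mice carried no stated allele or transgene, and their age is not given in the sources used here. The injected agent is itself the vitamin that these genes handle, and the samples analysed here hold no group given bicarbonate alone and none injured by another agent, so an effect of the folate load, of the vehicle and of the injury cannot be told apart. Whether the 3 libraries of a group are 3 different mice is not stated in the labels, and p-values speak for the spread among the libraries only.

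Gene counts summed to between 8.68 and 54.6 M (mega) reads per library, of which transcripts of mitochondrial DNA made up 59.0 to 75.6%. That left 2.83 to 17.2 M reads for all other genes, and day 2 replicate 2 was the shallowest library. The authors' counting set aside multiply aligned reads (18.4 to 28.5% of a library), which makes members with near-identical copies elsewhere in the genome uncertain. Exons of 13 members overlap exons of another gene, 12 of them on the opposite strand, by at most 19.7% of exon bases (Gart). Aldh1l1, Dmgdh, Mat2a, Sardh and Shmt2, called below, are among them with 1.03 to 11.3% of exon bases shared with an opposite gene, and whether counting used strand is not given in the sources used here. All 12 proximal tubule markers examined were detected in these kidneys, and of 9 hepatocyte markers Alb did not exceed 1.25 CPM in any library, while Ttr read 40.2, 37.3 and 57.1 CPM in untreated kidney and Apoc3 and Serpina1b had reads in all libraries. Levels are given in CPM, the reads of a gene per M reads of its library once TMM scaling is applied. A gene was called higher or lower at a Benjamini-Hochberg adjusted p under 0.05 in edgeR's quasi-likelihood test over 16824 genes.

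Folate carries single carbon units between reactions. Serine and glycine donate the units in mitochondria and cytosol, and the cell spends them on thymidylate, on purines and, through methionine and S-adenosylmethionine, on methylation. In the kidney, proximal tubule cells reclaim filtered folate through folate receptor alpha and also make serine from glycine. The mitochondrial dehydrogenase Mthfd2 is known as an enzyme of embryonic and dividing cells that is scarce in most adult tissues.

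Called lower on at least 1 day after folic acid were 6 of the 12 genes of the mitochondrial branch. In the methionine cycle 5 of the 8 tested genes were lower. The others called lower were Ftcd and Aldh1l1 of the 8 cytosolic enzymes and Folr1 of the 6 uptake and retention genes. No test between branches was made. The members called higher were few: Atic in the cytosolic branch, Psat1 in serine synthesis, and Mthfd2 and Mthfd1l in the mitochondrial formate arm. Shmt2 of that same arm was called lower. A folate carrier, Slc19a1, was also called higher, from 1 library. Of the 37 tested members, 19 were called on at least 1 day against untreated kidney, 14 of them lower and 5 higher, with no gene called in both directions. Of all genes tested, 21.0% were called on at least 1 of the 5 days, 9.34% lower and 11.8% higher, some of them in both directions. The 5 called higher were Atic, Mthfd2, Mthfd1l, Psat1 and Slc19a1, of which Slc19a1 was higher in day 2 replicate 2 alone (log2 fold change -0.16, adjusted p = 0.832 without it). The other 18 tested members passed the test on none of the days, which does not show that they were unaltered.

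At day 1, 12 members were lower and 4 higher, 43.2% of those tested, where 10.7% of all genes tested were called (5.56% lower and 5.09% higher). At day 2 there were 10 lower and 4 higher, 37.8% against 13.2% of all genes (5.98% lower and 7.19% higher). The counts were 7 lower and 2 higher at day 3, 24.3% against 7.61% (3.43% lower and 4.18% higher), and 9 lower and 1 higher at day 7, 27.0% against 7.72% (3.85% lower and 3.87% higher). By day 14 only Folr1 was still called, 1 of 37 tested, where 1.55% of all genes were called (0.309% lower and 1.24% higher). With this scaling the share of members called was above the share of all genes from day 1 to day 7, and at day 14 it rested on 1 gene. With scaling by library totals alone the shares were 40.5% of members against 9.25% of all genes at day 1 and 35.1 against 12.5% at day 2, but 16.2 against 13.3% at day 3 and 16.2 against 15.2% at day 7, where they were close. The median log2 fold change of the members was -0.60, -0.39, -0.71, -0.67 and -0.46 at days 1, 2, 3, 7 and 14, where the median of all genes tested lay between 0.03 and 0.07. These comparisons share the untreated libraries. The count at day 1 was 10 without untreated replicate 1 and 9 without day 1 replicate 2. The count at day 3 was 5 without untreated replicate 1, 4 without day 3 replicate 1 and 5 without day 3 replicate 2, that at day 7 was 6 without day 7 replicate 1, and that at day 14 was 2 without day 2 replicate 2. Of the 50 calls of members over the 5 days, 29, in 12 genes, were kept in all 18 fits that left out 1 library.

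The split between lower and higher depended on scaling at the later times. At day 3 RLE size factors, another scaling, gave 7 lower and 1 higher, as did TMM scaling without mitochondrial genome genes. At day 7 both gave 9 lower and 1 higher. Library totals include the mitochondrial transcripts, 69.2 to 75.6% of untreated reads in genes and 59.0 to 65.6% at day 3. Scaling by library totals alone moved the median log2 fold change of all genes by 0.14, 0.25, 0.58, 0.67 and 0.32 at the 5 times. Under it the members called at day 2 were 8 lower and 5 higher, at day 3 they were 1 lower and 5 higher, and at day 7 they were 3 lower and 3 higher. At day 1 it gave 11 lower and 4 higher. It ended 15 of the 50 member calls, among them Shmt2, Dld, Ahcy and Cbs at days 3 and 7, Folr1 (adjusted p = 0.0734) and Bhmt2 at day 3, and Sardh and Mat2a at day 7, and reversed none. Over all genes that scaling raised the share of calls that were higher from 54.6 to 69.0% at day 2, from 54.9 to 91.2% at day 3, from 50.2 to 93.2% at day 7 and from 80.0 to 95.9% at day 14.

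**Figure D1:**
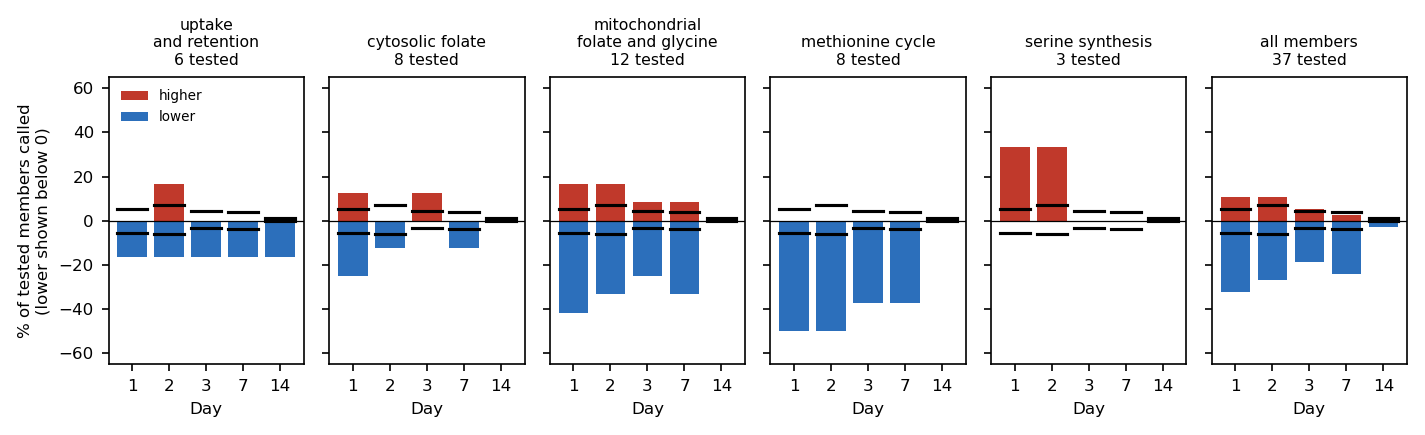
Percent of the tested genes of each branch called higher (red, above 0) or lower (blue, below 0) against untreated kidney at days 1, 2, 3, 7 and 14. Black lines mark the percent of all 16824 genes called in that direction; in the methionine cycle 4 of 8 genes were lower at days 1 and 2 and none was higher on any day.

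**Figure D2:**
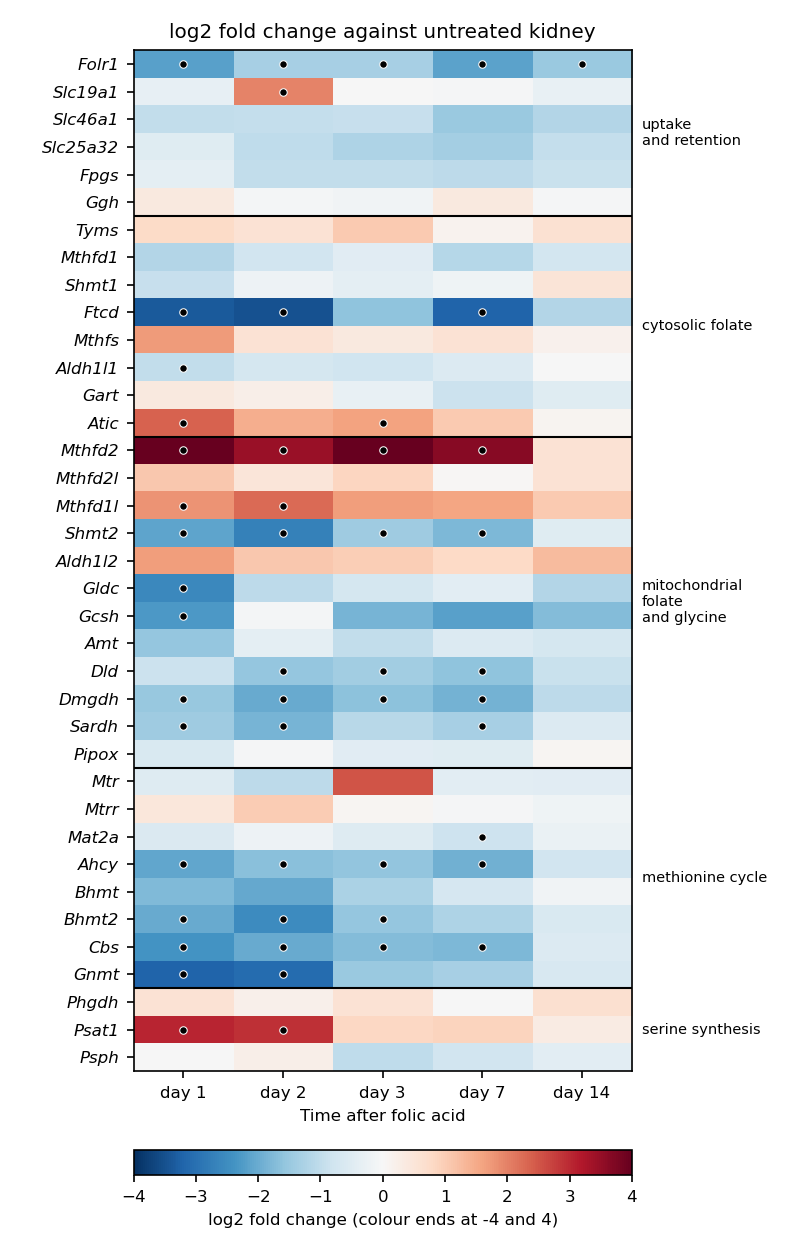
Fitted log2 fold change of the 37 tested members against untreated kidney, with rows grouped by branch and columns by day. Dots mark adjusted p under 0.05; the 5 genes with red dotted cells are Slc19a1 (from 1 library), Atic, Mthfd2, Mthfd1l and Psat1, and the day 14 column has 1 dot, for Folr1.

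Before folic acid, the members covered a wide range of levels per kilobase of exon. The highest was Mat2a, the methionine adenosyltransferase of tissues outside the liver, at 51.5 CPM per kb, followed by Folr1 at 43.4, Pipox at 37.8, Dld at 37.8 and Gcsh at 34.4 CPM per kb (means of 3 libraries). A step down came Shmt2 at 15.3, Bhmt2 at 12.5 and Cbs at 10.2 CPM per kb. At the low end stood Bhmt at 0.127 and Mthfd2 at 0.0342 CPM per kb. Neighbours in this order often cannot be ranked, and Gcsh in particular ran from 26.6 to 92.6 CPM between its 3 libraries.

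**Figure D3:**
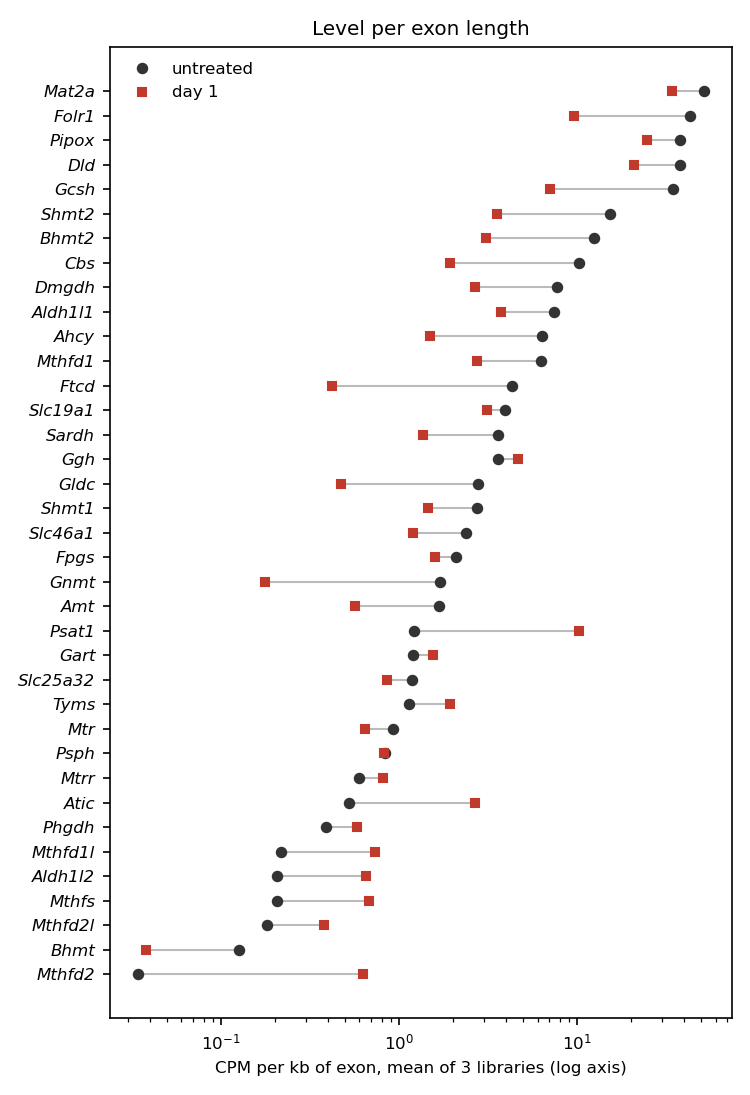
Mean CPM per kilobase of exon in untreated kidney (dark circles) and at day 1 (red squares) on a log axis, for the 37 tested members ordered by untreated level. Several of the best expressed genes, such as Folr1, Shmt2 and Cbs, lie lower at day 1, and Mthfd2 rises from the lowest untreated level of those shown, 0.0342 CPM per kb.

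Of the 6 genes of uptake and retention, Folr1 was lower on all 5 days and Slc19a1 was higher at day 2, while the other 4 were not called. Folr1 encodes folate receptor alpha, which binds filtered folate at the brush border. It stood at 95.4, 95.6 and 108 CPM in untreated kidney and at 19.1, 22.3 and 24.6 CPM at day 1, a fall of 4.53-fold (log2 fold change -2.18, SE 0.28, adjusted p = 5.88e-05). At day 2 it read 32.3, 45.0 and 43.0 CPM and at day 3 34.6, 40.8 and 43.4 CPM, 2.49-fold and 2.52-fold below untreated. At day 7 it read 18.8, 20.8 and 28.2 CPM, 4.41-fold lower, and at day 14 41.4, 44.2 and 21.4 CPM, 2.79-fold (log2 fold change -1.48, SE 0.27, adjusted p = 0.00779) lower. Every treated library lay below every untreated one, and days 1 and 7 held the lowest group means. This call was kept at each of the 5 times in all 18 fits with 1 library left out, and the day 14 call was lost when the fit held only the groups compared (adjusted p = 0.0773).

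Markers of the proximal tubule, the segment where Folr1 is known to act, were lower over the same days. The summed level of 12 proximal tubule markers was 7136 to 8325 CPM in untreated libraries, 1247 to 1468 CPM at day 1, 1656 to 2074 at day 2, 2456 to 3133 at day 3, 2530 to 3042 at day 7 and 3307 to 6711 at day 14. Of these 12 markers, 10, 9, 8, 9 and 1 were called lower at days 1, 2, 3, 7 and 14, and none was called higher. In whole kidney, fewer cells of a type and less RNA per cell cannot be told apart. The part of the proximal tubule in the falls described here was not tested.

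Slc19a1, the reduced folate carrier, read 21.5, 16.8 and 16.4 CPM in untreated kidney and 18.5, 184 and 14.3 CPM at day 2. Its call at day 2, 3.93-fold (log2 fold change 1.98, SE 0.64, adjusted p = 0.0483) higher, rested on day 2 replicate 2 alone, the shallowest library. Without that library the log2 fold change was -0.16 (adjusted p = 0.832). Of the 18 fits with 1 library left out, 16 lost the call, and it was the 1 call of a member whose groups overlapped.

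The remaining genes of this branch gave mostly lower values that did not pass. Slc46a1, the proton-coupled folate transporter, had log2 fold changes from -1.47 (day 7, adjusted p = 0.0914) to -0.92 at day 3, and its treated and untreated libraries did not overlap on any day. Slc25a32, which carries folate into mitochondria, lay between -1.36 and -0.47. Fpgs, which adds the glutamate tail that keeps folate in the cell, lay between -1.04 and -0.38. Ggh, which removes that tail, stayed between -0.13 and 0.39, and its libraries overlapped the untreated ones on all 5 days.

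Among the 8 cytosolic enzymes, Ftcd and Aldh1l1 were lower and Atic was higher on some days, and 5 were not called. Ftcd passes the one-carbon unit of histidine breakdown to folate. It stood at 10.7, 16.2 and 14.2 CPM in untreated kidney, 1.40, 1.44 and 1.19 CPM at day 1 and 1.35, 0.338 and 1.69 CPM at day 2. It had fallen 11.3-fold (log2 fold change -3.50, SE 0.63, adjusted p = 0.00126) at day 2, 10.2-fold at day 1 and 9.26-fold at day 7, when it read 0.888, 1.43 and 2.12 CPM. At day 3 it read 4.64, 1.59 and 7.14 CPM, a log2 fold change of -1.62 (SE 0.58, adjusted p = 0.0954), and at day 14 6.51, 9.61 and 2.32 CPM, -1.16 (SE 0.57, adjusted p = 0.339). No treated library reached the lowest untreated one on any day. The groups at days 3 and 14 were spread over a wide range, with day 3 replicate 2 and day 14 replicate 3 lowest.

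Atic makes the last steps of purine synthesis and takes its carbon from formyl-folate. Its level was 4.08, 3.00 and 5.51 CPM in untreated kidney, 39.1, 15.0 and 10.3 CPM at day 1 and 9.80, 12.2 and 12.7 CPM at day 2. At day 3 it was 22.6, 8.45 and 7.37 CPM, at day 7 9.34, 7.198 and 9.44 CPM and at day 14 5.77, 4.01 and 3.75 CPM. All libraries of days 1 to 7 lay above the untreated ones, and the day 14 libraries overlapped them. The rise at day 1 was 5.13-fold (log2 fold change 2.36, SE 0.50, adjusted p = 0.00416), and without day 1 replicate 1, the highest library, its log2 fold change was 1.59 (adjusted p = 0.0412). The rise at day 3, 3.06-fold (log2 fold change 1.61, SE 0.49, adjusted p = 0.0485), was lost in 15 of 18 fits with 1 library left out, and leaving out day 3 replicate 1 gave a log2 fold change of 0.92 (adjusted p = 0.292). At day 2 the log2 fold change was 1.47 (SE 0.49, adjusted p = 0.0529) and at day 7 1.05 (SE 0.48, adjusted p = 0.208).

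Aldh1l1, which burns formyl-folate to carbon dioxide, was called lower at day 1 alone. It read 43.3, 26.7 and 31.3 CPM in untreated kidney and 16.01, 16.1 and 18.6 CPM at day 1, 1.99-fold (log2 fold change -0.995, SE 0.31, adjusted p = 0.0462) lower. The groups did not overlap, but the call was lost in 13 of the 18 fits without 1 library, including each of the 6 that left out an untreated or day 1 library, where the adjusted p reached 0.194. At day 14 it read 40.9, 34.0 and 24.2 CPM, overlapping the untreated libraries.

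The 5 cytosolic enzymes that were not called did not pass the test on any day. Tyms, which makes thymidylate, read 5.65, 6.02 and 9.14 CPM in untreated kidney and 11.2, 20.9 and 10.9 CPM at day 3, above all untreated libraries, with a log2 fold change of 1.05 (SE 0.37, adjusted p = 0.0914). Mthfd1, the trifunctional enzyme that interconverts cytosolic folates, read 30.0, 26.1 and 27.3 CPM untreated and 11.2, 9.52 and 16.05 CPM at day 1, below all untreated libraries, with -1.18 (SE 0.42, adjusted p = 0.0831). Shmt1, the cytosolic serine hydroxymethyltransferase, ran from -0.91 at day 1 to 0.52 at day 14. Gart, which takes formyl-folate for early purine steps, ran from -0.86 to 0.38, and Mthfs, which recycles a storage form of folate, from 0.18 to 1.69.

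Among the 12 genes of the mitochondrial branch, neighbouring steps of the same arm moved in opposite directions. Shmt2 takes a carbon from serine, Mthfd2 oxidises it and Mthfd1l releases it as formate for the cytosol. Shmt2 was lower at days 1, 2, 3 and 7, Mthfd2 was higher on the same 4 days, and Mthfd1l was higher at days 1 and 2. To show the regulatory sequence ahead of the first pair, the 250 bases before each start site in RefSeq (GRCm38.p6) are printed 5′ to 3′ on the strand of the gene, with CG dinucleotides in capitals.
Mthfd2: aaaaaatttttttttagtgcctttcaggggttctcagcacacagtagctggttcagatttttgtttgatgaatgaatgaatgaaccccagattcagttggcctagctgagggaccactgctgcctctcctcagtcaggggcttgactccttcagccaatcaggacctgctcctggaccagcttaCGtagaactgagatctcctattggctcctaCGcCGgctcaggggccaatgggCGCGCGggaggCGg
Shmt2: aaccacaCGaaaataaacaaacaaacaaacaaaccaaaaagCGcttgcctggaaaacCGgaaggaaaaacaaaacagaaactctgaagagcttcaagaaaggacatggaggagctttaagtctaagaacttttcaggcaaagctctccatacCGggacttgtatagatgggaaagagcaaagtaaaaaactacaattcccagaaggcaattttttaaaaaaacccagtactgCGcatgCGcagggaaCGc
The Mthfd2 window lies on the minus strand at chr6:83317605-83317854 and the Shmt2 window on the minus strand at chr10:127522445-127522694. Each holds 7 CG dinucleotides, where the median over 32851 windows, each counted over the same 250 bases, was 6 and the quartiles were 2 and 16. For motifs the whole RefSeq window of 300 bases, which runs 50 bases past the start, was searched. Windows were found for 33 members, and none of them held TGATGNAA, a form of the composite element bound by C/EBP and ATF factors, or TTTNGCGC, a form of the E2F element, on either strand, where 3.97% and 1.38% of all windows did.

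Shmt2 is the mitochondrial serine hydroxymethyltransferase. It stood at 52.0, 49.8 and 41.0 CPM in untreated kidney, 12.5, 7.94 and 12.8 CPM at day 1 and 8.72, 3.38 and 9.46 CPM at day 2. At day 3 it read 16.5, 13.8 and 22.4 CPM, at day 7 7.37, 18.5 and 15.4 CPM and at day 14 42.6, 29.2 and 29.6 CPM. The libraries of days 1 to 7 all lay below the untreated ones, and those of day 14 overlapped them. The largest fall was at day 2, 6.47-fold (log2 fold change -2.69, SE 0.40, adjusted p = 2.04e-04), after 4.30-fold at day 1, and it was 2.71-fold at day 3 and 3.46-fold at day 7. At day 14 the log2 fold change was -0.49 (SE 0.37, adjusted p = 0.577). The call at day 3 was lost without untreated replicate 1 or 2 and without day 3 replicate 1 or 2, where the adjusted p lay between 0.0738 and 0.117.

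Mthfd2, the mitochondrial methylenetetrahydrofolate dehydrogenase and cyclohydrolase, had few reads in untreated kidney. It had 5, 1 and 1 reads there, or 0.272, 0.0238 and 0.0626 CPM. At day 1 it had 25, 135 and 124 reads, or 1.09, 3.04 and 2.47 CPM, and at day 2 1.203, 1.01 and 1.42 CPM. It read 1.96, 2.50 and 2.86 CPM at day 3 and 1.94, 0.820 and 1.42 CPM at day 7, and 0.130, 0.122 and 0.245 CPM at day 14. Every library from day 1 to day 7 was above every untreated library, and the day 14 libraries overlapped the untreated ones. The fitted rise was 19.6-fold (log2 fold change 4.29, SE 0.77, adjusted p = 0.00116) at day 1, 10.9-fold at day 2, 21.7-fold at day 3 and 12.4-fold at day 7. Its size depended on the few untreated reads: at day 1 the log2 fold change was 5.74 without untreated replicate 1 and 3.65 without untreated replicate 2, and the call stood in all 18 fits on each of these 4 days. With only the groups compared in the fit, the adjusted p at day 2 was 0.0507. The same omissions gave 4.89 and 2.80 at day 2, 5.88 and 3.79 at day 3, and 5.08 and 2.99 at day 7.

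Mthfd1l, the mitochondrial formyltetrahydrofolate synthetase, read 0.761, 0.428 and 1.69 CPM in untreated kidney, 4.59, 3.37 and 1.85 CPM at day 1 and 4.48, 6.42 and 2.88 CPM at day 2. Both groups lay above the untreated one. It rose 4.83-fold (log2 fold change 2.27, SE 0.56, adjusted p = 0.0116) at day 2 and 3.47-fold (log2 fold change 1.79, SE 0.55, adjusted p = 0.0431) at day 1. Without untreated replicate 1 or 2 the adjusted p at day 2 was 0.054 and 0.0625, and without untreated replicate 3 the log2 fold change was 2.93. The day 1 call was lost in 10 of the 18 fits, with adjusted p up to 0.177, and without untreated replicate 3 its log2 fold change was 2.47. At days 3, 7 and 14 it read 2.49, 3.86 and 2.65 CPM, 4.11, 1.64 and 2.64 CPM and 1.95, 2.03 and 1.83 CPM, with adjusted p of 0.0706, 0.089 and 0.377.

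**Figure D4:**
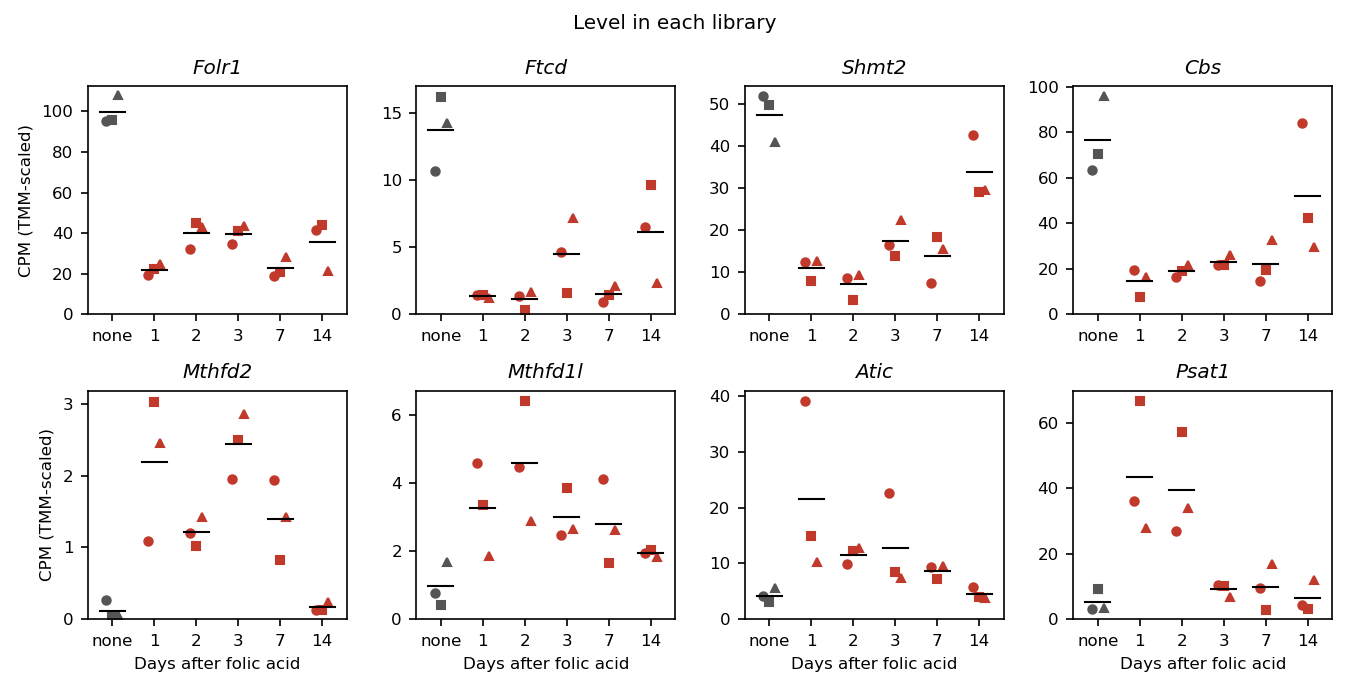
CPM of 8 members in each library (markers distinguish replicates 1, 2 and 3 as circle, square and triangle) against days after folic acid, untreated in grey, with horizontal lines at the mean of 3. Folr1, Ftcd, Shmt2 and Cbs lie below untreated from day 1 to day 7, and Mthfd2, at 0.0238 to 0.272 CPM untreated, lies above it on the same days.

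Aldh1l2 and Mthfd2l, the other mitochondrial folate enzymes, were not called. Aldh1l2, which oxidises mitochondrial formyl-folate, had log2 fold changes from 0.79 at day 7 to 1.67 at day 1 (adjusted p = 0.0779), and its treated libraries lay above the untreated ones on every day but day 2. Mthfd2l, a close relative of Mthfd2, lay between 0.04 and 1.06 and overlapped the untreated libraries on all 5 days.

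The glycine cleavage system splits glycine and hands its carbon to folate. Of its 4 genes 3 were called lower on at least 1 day, where 9.34% of all genes tested were. Gldc, the decarboxylase that opens the reaction, read 16.5, 22.3 and 12.2 CPM in untreated kidney and 3.89, 2.72 and 1.99 CPM at day 1, 5.96-fold (log2 fold change -2.58, SE 0.72, adjusted p = 0.0272) lower. Its libraries then scattered, with day 2 replicate 1 at 16.3 CPM, day 3 replicate 1 at 19.8 CPM and day 7 replicate 3 at 25.3 CPM, all within or above the untreated range. The day 1 call was lost in 5 of the 18 fits, those without untreated replicate 1 or 2 or any 1 of the day 1 libraries, with adjusted p from 0.0559 to 0.104.

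Gcsh is the small protein that carries the aminomethyl group left from glycine between the enzymes. It read 43.8, 26.6 and 92.6 CPM in untreated kidney and 8.31, 11.9 and 13.2 CPM at day 1. It was 4.87-fold (log2 fold change -2.28, SE 0.70, adjusted p = 0.0428) lower at day 1, and this call was lost in 12 of the 18 fits, with a log2 fold change of -1.67 (adjusted p = 0.193) without untreated replicate 3. At day 2 it read 10.99, 132 and 11.6 CPM, with day 2 replicate 2 above every untreated library and the other two below them. Leaving that library out changed the day 2 log2 fold change from -0.09 to -2.27 (adjusted p = 0.00457). Without it Gcsh was also called lower at day 3 (-1.87, adjusted p = 0.00635), day 7 (-2.17, adjusted p = 0.00223) and day 14 (-1.75, adjusted p = 0.0269), where all libraries lay below the untreated ones.

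Dld, the dihydrolipoamide dehydrogenase that the glycine system shares with pyruvate dehydrogenase, read 136, 145 and 136 CPM in untreated kidney and 53.4, 27.9 and 60.5 CPM at day 2. At day 7 it read 36.5, 49.4 and 49.7 CPM, 3.08-fold (log2 fold change -1.62, SE 0.29, adjusted p = 0.00227) lower, after 2.93-fold at day 2 and 2.60-fold at day 3. At day 1 it read 66.8, 76.0 and 87.6 CPM and at day 14 83.1, 94.5 and 45.7 CPM, with log2 fold changes of -0.86 (SE 0.29, adjusted p = 0.0657) and -0.90 (SE 0.29, adjusted p = 0.12). All treated libraries lay below the untreated ones on every day, and the calls at days 2, 3 and 7 held in all 18 fits with 1 library left out. Amt, the aminomethyltransferase, was not called, with log2 fold changes from -1.56 (adjusted p = 0.0861) at day 1 to -0.39 at day 2.

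Dmgdh and Sardh remove the methyl groups of dimethylglycine and sarcosine in mitochondria and give them to folate. Dmgdh read 28.5, 20.6 and 29.9 CPM in untreated kidney, 9.45, 6.70 and 11.4 CPM at day 1, 4.85, 10.6 and 4.65 CPM at day 2, 7.46, 8.30 and 9.73 CPM at day 3, 5.23, 7.45 and 8.43 CPM at day 7 and 15.8, 13.3 and 9.09 CPM at day 14. No treated library reached an untreated one. The fall was 2.87-fold at day 1, 4.02-fold (log2 fold change -2.01, SE 0.38, adjusted p = 0.00167) at day 2, 3.10-fold at day 3 and 3.74-fold at day 7. At day 14 the log2 fold change was -1.05 (SE 0.36, adjusted p = 0.15). The day 1 call was lost without day 1 replicate 2 (adjusted p = 0.0648) and the day 3 call without day 3 replicate 1 (adjusted p = 0.0505).

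Sardh read 24.2, 16.03 and 18.6 CPM in untreated kidney, 10.1, 5.87 and 6.20 CPM at day 1 and 6.20, 5.92 and 4.23 CPM at day 2. It was 3.61-fold (log2 fold change -1.85, SE 0.39, adjusted p = 0.00395) lower at day 2, 2.66-fold lower at day 1 and 2.48-fold lower at day 7, when it read 7.14, 6.20 and 10.3 CPM. It lay below the untreated libraries from day 1 to day 7, and at day 14 it read 16.4, 17.1 and 6.77 CPM with 2 libraries inside the untreated range. The call at day 1 was lost without untreated replicate 1 or day 1 replicate 2 or 3 (adjusted p 0.0871 to 0.101), and that at day 7 in 7 of the 18 fits (adjusted p up to 0.149). At day 3 the log2 fold change was -1.10 (SE 0.38, adjusted p = 0.0833). Pipox, the peroxisomal sarcosine oxidase, was not called and ran from -0.60 to 0.08. Its libraries at days 1, 3 and 7 all lay below the untreated ones, with 58.1, 49.0 and 77.1 CPM at day 1. The untreated libraries read 90.6, 94.0 and 95.4 CPM. Whether Pipox moved differently from Dmgdh and Sardh was not tested.

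In the methionine cycle 5 of the 8 tested genes were called, all of them lower: Cbs, Ahcy, Bhmt2, Gnmt and Mat2a. The counts were 4, 4, 3, 3 and 0 of 8 at days 1, 2, 3, 7 and 14, beside 5.56, 5.98, 3.43, 3.85 and 0.309% of all genes called lower.

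Cbs, the cystathionine synthase that commits homocysteine to cysteine, read 63.3, 70.2 and 95.8 CPM in untreated kidney and 19.5, 7.54 and 16.5 CPM at day 1, a fall of 5.28-fold (log2 fold change -2.40, SE 0.41, adjusted p = 7.45e-04). It read 16.4, 19.1 and 21.6 CPM at day 2, 21.5, 21.7 and 25.9 CPM at day 3 and 14.8, 19.3 and 32.6 CPM at day 7, 4.02-fold, 3.31-fold and 3.44-fold below untreated. At day 14 it read 83.9, 42.3 and 29.6 CPM, with a log2 fold change of -0.56 (SE 0.39, adjusted p = 0.531). All libraries of days 1 to 7 lay below the untreated ones, and day 14 replicate 1 lay among them. The day 3 call was lost without day 3 replicate 1 or 2 (adjusted p = 0.0523 and 0.0567) and the day 7 call without day 7 replicate 1 (adjusted p = 0.063).

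Ahcy splits S-adenosylhomocysteine after each methylation. It read 30.0, 11.5 and 12.3 CPM in untreated kidney, where replicate 1 stood above the other two, and 3.54, 5.47 and 3.64 CPM at day 1, 4.24-fold (log2 fold change -2.08, SE 0.45, adjusted p = 0.00463) lower. It was 3.19-fold lower at day 2 (6.30, 3.21 and 7.03 CPM), 2.97-fold at day 3 (5.61, 5.42 and 7.06 CPM) and 3.77-fold at day 7 (4.24, 3.35 and 6.66 CPM). The treated libraries of these 4 days lay below all untreated ones, and at day 14 it read 10.4, 14.1 and 6.93 CPM. Without untreated replicate 1 the log2 fold change at day 1 was -1.50 (adjusted p = 0.046), and the calls at days 2, 3 and 7 were lost, with -1.10 (adjusted p = 0.135), -0.997 (adjusted p = 0.224) and -1.33 (adjusted p = 0.099). They were also lost without day 2 replicate 2 (adjusted p = 0.0679), any 1 of the day 3 libraries (adjusted p 0.0635 to 0.122) and day 7 replicate 1 or 2 (adjusted p = 0.0625 and 0.0612).

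Bhmt2 remethylates homocysteine with S-methylmethionine. It read 32.9, 31.5 and 28.2 CPM in untreated kidney, 11.4, 3.87 and 7.66 CPM at day 1 and 6.54, 3.21 and 6.07 CPM at day 2. It fell 4.05-fold at day 1, 5.73-fold (log2 fold change -2.52, SE 0.46, adjusted p = 0.0014) at day 2 and 2.92-fold at day 3, when it read 8.62, 13.6 and 9.58 CPM. The groups of days 1 to 7 lay below the untreated one. The day 3 call was lost in 7 of the 18 fits, each of the 6 without an untreated or day 3 library among them (adjusted p up to 0.134). At day 7 it read 7.10, 11.4 and 20.95 CPM with a log2 fold change of -1.23 (SE 0.44, adjusted p = 0.0963), and at day 14 15.0, 30.5 and 15.8 CPM with -0.60 (SE 0.43, adjusted p = 0.555).

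Gnmt, the glycine methyltransferase that disposes of excess S-adenosylmethionine in liver, was measured on few reads. It had 32, 87 and 38 reads in untreated kidney, 2, 6 and 21 at day 1 and 11, 0 and 10 at day 2, or 1.74, 2.069 and 2.38 CPM, 0.0875, 0.135 and 0.418 CPM and 0.224, 0 and 0.384 CPM. Both early groups lay below the untreated one. The fall was 9.19-fold (log2 fold change -3.20, SE 0.92, adjusted p = 0.0314) at day 1 and 8.53-fold at day 2 (adjusted p = 0.0358). The day 1 call was lost in 5 of the 18 fits (adjusted p up to 0.121), all without an untreated or day 1 library, and leaving out day 1 replicate 3 gave a log2 fold change of -4.12. The day 2 call was lost in each of the 6 fits without an untreated or day 2 library (adjusted p up to 0.0987). At day 14 the reads numbered 35, 52 and 9, or 1.52, 2.11 and 0.367 CPM.

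Mat2a, which makes S-adenosylmethionine outside the liver, moved less. It read 240.5, 213 and 240.0 CPM in untreated kidney and 111, 140.2 and 136 CPM at day 7, 1.79-fold (log2 fold change -0.84, SE 0.20, adjusted p = 0.0125) lower, with no overlap. Without day 7 replicate 1 this call was lost (log2 fold change -0.74, adjusted p = 0.0745). At day 1 it read 151, 149 and 162 CPM, also below the untreated libraries, with a log2 fold change of -0.58 (SE 0.20, adjusted p = 0.0638).

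The other members of the cycle were not called. Bhmt, the betaine-dependent enzyme, had 1 to 41 reads per library and log2 fold changes from -2.04 to -0.15. Mtr, methionine synthase, which joins the folate and methionine cycles, lay between -1.06 and -0.42 on 4 of the 5 days, and on day 3 its value came from 1 library. Mtrr, the reductase that keeps Mtr active, lay between -0.19 and 1.02.

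Serine synthesis had 1 called gene of 3, called higher, where 11.8% of all genes tested were called higher on at least 1 day. Psat1, the phosphoserine aminotransferase in the middle of the pathway, read 3.04, 9.11 and 3.26 CPM in untreated kidney, 36.1, 66.5 and 27.7 CPM at day 1 and 27.0, 57.3 and 33.8 CPM at day 2. It rose 8.35-fold (log2 fold change 3.06, SE 0.64, adjusted p = 0.00383) at day 1 and 7.53-fold (log2 fold change 2.91, SE 0.64, adjusted p = 0.00501) at day 2, with every library of these days above the untreated ones. Without untreated replicate 2, the highest of its group, the log2 fold changes were 3.78 and 3.62, and both calls held in all 18 fits. At day 3 it read 10.5, 10.2 and 6.80 CPM, at day 7 9.47, 2.74 and 16.9 CPM and at day 14 4.38, 3.16 and 12.1 CPM. Psat1 was not called at these times, and each group overlapped the untreated one. In each of them at least 1 library lay above the highest untreated one.

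The first and last genes of the pathway were not called. Phgdh, which starts the pathway, read 0.761, 1.64 and 0.501 CPM in untreated kidney and 0.175, 1.75 and 2.43 CPM at day 1, with log2 fold changes between -0.01 and 0.64 over the 5 days. Psph, which ends it, lay between -1.01 and 0.25. Whether Psat1 moved differently from them was not tested.

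Related genes of different compartments or tissues can be set side by side, as a description with no test between them. Shmt2 fell at day 1 (log2 fold change -2.10), and cytosolic Shmt1 read 12.6, 7.82 and 11.6 CPM untreated and 4.20, 6.57 and 6.14 CPM at day 1 (-0.91 (SE 0.37, adjusted p = 0.133)). Cytosolic Mthfd1, which joins dehydrogenase, cyclohydrolase and synthetase activities in a single protein, had -1.18 (SE 0.42, adjusted p = 0.0831) at day 1, where mitochondrial Mthfd1l had 1.79. At day 1 cytosolic Aldh1l1 had -0.995 and mitochondrial Aldh1l2 had 1.67. Mthfd2 rose from a few reads, and Mthfd2l, at 0.544, 1.02 and 2.067 CPM untreated and 3.98, 1.46 and 2.15 CPM at day 1, did not pass. Of the betaine homologues, Bhmt2 was the better expressed per length in untreated kidney, 12.5 against 0.127 CPM per kb for Bhmt. For the methionine adenosyltransferases the values were 51.5 CPM per kb for Mat2a and 0 for Mat1a.

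In a few members, 1 library stood far above the other two of its group. Slc19a1 at 184 CPM and Gcsh at 132 CPM did so in day 2 replicate 2. Mtr read 7.53, 123 and 5.43 CPM at day 3, with replicate 2 high, against 7.56, 6.28 and 9.90 CPM untreated. The fitted log2 fold change of Mtr at day 3 was 2.52 (SE 0.82, adjusted p = 0.068), and Mtr was called across all 6 groups (adjusted p = 0.00786) but not without that library (adjusted p = 0.545). Mthfs read 12.6, 1.75 and 1.23 CPM at day 1, with replicate 1 high. Mthfd1 read 8.69, 39.0 and 12.7 CPM at day 3, again with replicate 2 high, and without it Mthfd1 was called lower at that time (log2 fold change -1.37, adjusted p = 0.0392). Pipox read 80.6, 169 and 47.2 CPM at day 14. The source of these high values was not tested.

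**Figure D5:**
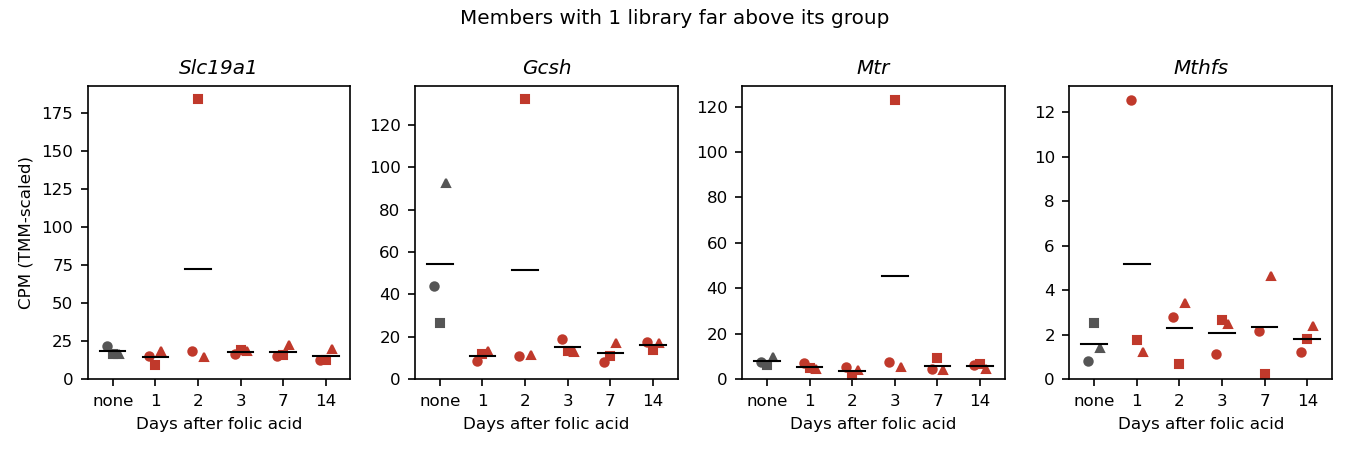
CPM of Slc19a1, Gcsh, Mtr and Mthfs in each library against days after folic acid (circle, square and triangle for replicates 1, 2 and 3; lines at the mean of 3). In each panel 1 treated library stands far above the other two of its group: 184 and 132 CPM in day 2 replicate 2, 123 CPM in day 3 replicate 2 and 12.6 CPM in day 1 replicate 1. In the Gcsh panel untreated replicate 3, at 92.6 CPM, is also high.

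Between consecutive times no member passed the test. The shares of all genes called were 0.0594% from day 1 to day 2, 0.25% from day 2 to day 3, 0.0178% from day 3 to day 7 and 0.0178% from day 7 to day 14. At an unadjusted p under 0.05 there were 5, 8, 4 and 9 members, and DESeq2 called 1, 3, 0 and 2. Across all 6 groups 16 of the 37 tested members differed, 43.2% against 19.7% of all genes. Of these 16, Slc19a1 was lost without day 2 replicate 2 (adjusted p = 0.847), Sardh and Ahcy without untreated replicate 1 (adjusted p = 0.0538 and 0.0541), and Mtr, Gcsh and Mat2a in at least 1 fit without 1 library.

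The 14 members called lower were chosen here for low values on earlier days, so a higher value later is partly set by that choice, and the following is a description. All 14 still had log2 fold changes below 0 at day 14, from -1.74 (Gcsh) to -0.03 (Aldh1l1). From day 7 to day 14, 13 of the 14 had log2 fold changes above 0, 8 of them at an unadjusted p under 0.05, and the lowest adjusted p among the 14 was 0.267. Gldc was the exception, with -0.74. Their median was 0.71, and of the 18 members not called on any day 13 were above 0 with a median of 0.40. The largest of the 14 was Ftcd, with 2.06 from day 7 to day 14, followed by Shmt2 with 1.30 and Cbs with 1.22. Among the risen genes, Mthfd2 had -3.04 (SE 0.71, adjusted p = 0.243) over the same step. Of the 14 fallen members 10 were lowest in day 14 replicate 3, as were 23 of all 37 tested members. In that library the 12 proximal tubule markers summed to 3307 CPM, against 5615 and 6711 CPM in replicates 1 and 2. The part of the proximal tubule in this spread was not tested.

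Pathways that supply or spend the same carbon units were read from 6 further lists with 64 entries. At days 1, 2, 3, 7 and 14, 5.56, 5.98, 3.43, 3.85 and 0.309% of all genes were called lower and 5.09, 7.19, 4.18, 3.87 and 1.24% higher. In purine synthesis 1 of 11 genes was called higher at days 2 and 14, a share near that of all genes at day 2, and none was lower on any day. Both calls were of Impdh2, which commits purines to guanine nucleotides. It rose 10.9-fold (log2 fold change 3.44, SE 0.80, adjusted p = 0.00809) at day 2, while at day 14 it read 3.34, 39.0 and 3.63 CPM and the call (adjusted p = 0.0483) was lost in 14 of 18 fits, with a log2 fold change of 1.06 (adjusted p = 0.388) without day 14 replicate 2. Among 7 genes of thymidylate and deoxynucleotide supply, 2, 3 and 1 were higher at days 1, 2 and 3 and none was lower. Rrm2, the regulated subunit of ribonucleotide reductase, rose 26.2-fold (log2 fold change 4.71, SE 0.70, adjusted p = 4.36e-04) at day 3, and without day 3 replicate 3 the log2 fold change was 4.004. Cad, which starts pyrimidine synthesis, was 4.27-fold higher at day 2 (adjusted p = 0.032), overlapping the untreated libraries, with a log2 fold change of 0.78 (adjusted p = 0.39) without day 2 replicate 2. It was also lost without untreated replicate 1 or 3 (adjusted p = 0.13 and 0.109). Rrm1, the other reductase subunit, was 3.37-fold higher at day 2 (adjusted p = 0.0246), a call lost without any 1 of the untreated libraries or day 2 replicate 1 or 3 (adjusted p 0.0551 to 0.104).

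The 13 genes that use methyl groups or homocysteine were mostly lower when called: 4, 4, 3, 5 and 2 lower and 1, 2, 0, 0 and 0 higher at the 5 times, beside 5.56, 5.98, 3.43, 3.85 and 0.309% of all genes lower and 5.09, 7.19, 4.18, 3.87 and 1.24% higher. Gatm and Gamt, the steps of creatine synthesis, of which Gamt spends S-adenosylmethionine, were lower at day 1 by 37.99-fold (log2 fold change -5.25, SE 0.44, adjusted p = 4.87e-07) and 12.5-fold (log2 fold change -3.65, SE 0.79, adjusted p = 0.0051). Nnmt, which methylates nicotinamide, had 0 reads in the untreated libraries and 31 reads at day 2, at least 9.75-fold higher when a floor of 3 reads over the untreated group is used, and its call (adjusted p = 0.0367) was lost without any 1 of the untreated libraries and without 5 others (adjusted p up to 0.134). Amplified reads that carry no molecular identifier need not be separate molecules, and this bound covers counting error only.

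Of 11 genes of cobalamin handling, the vitamin B12 supply that Mtr needs, 3, 3, 3, 3 and 1 were lower, beside 5.56, 5.98, 3.43, 3.85 and 0.309% of all genes, and none was higher. The uptake receptors Lrp2 and Cubn, which are also proximal tubule markers here, were lower at day 1 by 4.84-fold (log2 fold change -2.27, SE 0.24, adjusted p = 7.89e-06) and 3.31-fold (log2 fold change -1.73, SE 0.22, adjusted p = 5.88e-05). Tcn2, the B12 carrier of blood, was 3.20-fold (log2 fold change -1.68, SE 0.25, adjusted p = 2.49e-04) lower at day 2. Among 10 genes of serine and glycine transport and breakdown, 2, 1, 1, 2 and 0 were lower, beside the same shares of all genes, and 1 was higher at day 1, where 5.09% of all genes were. Slc6a20b was 6.61-fold (log2 fold change -2.72, SE 0.38, adjusted p = 1.06e-04) lower at day 1. Slc1a4, a neutral amino acid transporter, was 4.98-fold higher at day 1 (adjusted p = 0.029), with 1.09 on the log2 scale (adjusted p = 0.312) without day 1 replicate 1, and was also lost without any 1 untreated library (adjusted p 0.0662 to 0.119). Glyctk, glycerate kinase, was 2.45-fold lower at day 7 (adjusted p = 0.0336), a call lost without any 1 of the untreated or day 7 libraries (adjusted p 0.0553 to 0.131).

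The 12 genes listed for the ATF4 program, an amino acid and stress response, gave 3, 2, 2, 2 and 0 higher, beside 5.09, 7.19, 4.18, 3.87 and 1.24% of all genes. Of these genes 1 was lower at day 7, beside 3.85% of all genes. Asns, asparagine synthetase, rose 18.1-fold (log2 fold change 4.18, SE 0.79, adjusted p = 0.00173) at day 1, and without untreated replicate 2 its log2 fold change was 3.54. Slc7a5, a large neutral amino acid carrier, was 7.64-fold higher at day 7 (adjusted p = 0.0186), and was lost without untreated replicate 1 or 2 or day 7 replicate 1 (adjusted p 0.068 to 0.105). Ddit3, a stress transcription factor, was 4.15-fold higher at day 1 (adjusted p = 0.0353), with overlapping groups, and leaving out day 1 replicate 2 gave a log2 fold change of 1.02 (adjusted p = 0.328). It was also lost without any 1 untreated library (adjusted p 0.0751 to 0.129). Vldlr, a lipoprotein receptor, was 2.11-fold lower at day 7 (adjusted p = 0.0374), a call lost without any 1 of the untreated or day 7 libraries (adjusted p 0.0544 to 0.16).

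Markers of other cell states moved over the same days, beside 5.56, 5.98, 3.43, 3.85 and 0.309% of all genes lower and 5.09, 7.19, 4.18, 3.87 and 1.24% higher, and their part in the results above was not tested. Markers of injured tubule summed to 132 to 180 CPM untreated, 14886 to 19160 at day 1 and 15331 to 31933 at day 2. They summed to 7081 to 10541 at day 3, 4054 to 6520 at day 7 and 656 to 2771 at day 14. Of these markers 6 of 6 were higher up to day 7 and 4 of 6 at day 14. Spp1 gave most of the sum, 12040 to 16432 CPM at day 1 and 13766.5 to 29625.9 at day 2. Havcr1 read 2275 to 2450 CPM at day 1 and 678 to 1091 at day 2. Markers of dividing cells, in which Tyms and Mthfd2 are known to be high, summed to 16.5 to 32.4 CPM untreated, 43.2 to 91.1 at day 1, 158 to 205 at day 2, 90.7 to 124 at day 3, 43.7 to 62.1 at day 7 and 26.0 to 39.8 at day 14, with 4, 7, 6, 3 and 0 of 10 higher. Loop and distal tubule markers went from 1639 to 2262 CPM untreated to 221 to 400 at day 1 and 1672 to 2314 at day 14, with 6, 5, 6, 1 and 0 of 8 lower. Macrophage markers went from 22.2 to 47.5 CPM untreated to 190 to 296 at day 7, with 1, 1, 4, 6 and 5 of 8 higher and 1 lower at each of days 1 and 2. Fibroblast markers went from 30.7 to 55.0 CPM untreated to 144 to 316 at day 14, with 2, 3, 2, 3 and 2 of 6 higher and 1, 2, 0, 0 and 0 lower. Endothelial markers had 3, 4, 5, 1 and 0 of 6 lower, and collecting duct markers 3, 2, 0, 0 and 0 of 7 tested lower. The hepatocyte list, of which Ttr gave most of the untreated level, summed to 40.4 to 58.8 CPM untreated and 3.67 to 10.9 at day 1, and 4 of its 9 genes were tested, with 1 higher and 1 lower at each of days 1, 2 and 3. Of the 7 markers of T and B cells 4 were tested, with 1 lower at days 1, 2 and 7, and none of the neutrophil (3 tested of 6) or of the adipose and adrenal markers (3 tested of 5) was called.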

How the data were processed

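Raw gene counts were used for all tests. The deposited files hold counts of reads per gene as whole numbers, and the authors' normalized values were not used here. Per the submitters' processing notes, reads were handled with cutadapt, TopHat2 2.07, HTSeq and DESeq on build NCBIM37. Symbols were matched by gene identifier to GENCODE M21, a later build, from which exon lengths were taken. Tallies of 5 kinds of unassigned reads were left out.

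Counts were fitted with edgeR 4.0.16 (R 4.3.3, TMM scaling, filterByExpr, 1 term for 6 groups, 18 libraries). SE is the log2 fold change over the root of F. P-values are two-sided. DESeq2 1.42.0, limma-voom (limma 3.58.1), other scalings, no low-count filter and fits without each library were alternatives. Members called on any day were given in full at the time of lowest adjusted p, and from each other list up to 3 called genes with the largest change. The members and lists were chosen with earlier results of these data known. At low reads counting error limits the precision in addition to the spread among libraries.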

Additional observations from a re-analysis of the deposited data

How the results depend on the processing

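Over the 5 days 50 calls of members were made with edgeR. RLE size factors kept 48 of them, no low-count filter 47, limma-voom 46, leaving out mitochondrial genome genes 49, library totals alone 35, and fitting only the groups compared 42. DESeq2 kept all 49 it gave an adjusted p for and added 18. The replicate numbers showed no pairing (correlations of deviations from group means between -0.0543 and 0.0416 over 45 pairs of libraries), and a fit with a replicate block kept 42 calls and added 1.

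The number of members called moved to 15 at day 3 with DESeq2 and to 6 at day 7 with library totals alone. At day 14 it was 2 with DESeq2 and 0 with only the groups compared. From day 1 to day 2 it was 1 without the low-count filter and 1 with DESeq2. From day 2 to day 3 it was 1 with library totals alone, 2 without the filter and 3 with DESeq2, and from day 7 to day 14 it was 2 with DESeq2. Without 1 library it ranged from 9 to 17 at day 1, 10 to 14 at day 2, 4 to 9 at day 3, 6 to 11 at day 7 and 1 to 2 at day 14, from 0 to 1 for days 1 to 2 and days 2 to 3, 0 to 0 for the later steps, and 13 to 17 across the 6 groups. The log2 fold change of Slc19a1 at day 2 ranged from -0.16, without day 2 replicate 2, to 2.46. The causes were not tested.

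Over all genes, 1280 calls at day 3 became 2238 with library totals alone and 2160 with DESeq2, 1298 at day 7 became 2565 and 2151, and 260 at day 14 became 435 and 922, with 480 without the filter and 71 with only the groups compared, which also turned 2216 at day 2 into 1186. For the 4 consecutive steps the 10, 42, 3 and 3 calls became 515, 724, 217 and 147 with DESeq2, 248, 388, 48 and 32 without the filter, and 0 at each with only the groups compared. Library totals alone gave 166 from day 2 to day 3 and 0 from day 3 to day 7, limma-voom 12 and 11 at these steps, and the replicate block 2 from day 1 to day 2 and 1 from day 7 to day 14. Across the 6 groups 3315 became 5395 with DESeq2 and 2101 with limma-voom. Depth limits Mthfd2, Gnmt and Bhmt, which had 1 to 87 reads in the untreated libraries. It also limits Mthfd1l, with 14, 18 and 27 reads there, and Phgdh, Mthfd2l, Mthfs and Aldh1l2, with 8 to 106 reads.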
